A study of Mus musculus with 12 samples.

Results

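Mouse oocytes of primary follicles that lack Tbpl2 were compared with wild-type (WT) oocytes of the same stage, gene by gene. The comparison used the 6 libraries that the labels give as P7 (postnatal day 7) KO replicates 1 to 3 and P7 WT replicates 1 to 3, of 12 libraries in the series, and all 55450 genes of the table. The other 6 libraries are of P14 oocytes from secondary follicles. They entered only the filter that chose the tested genes, the scaling of the libraries and the shared estimate of the spread. The mutant genotype, labelled a null and called Tbpl2-/- below, comes from a Tbpl2 mutant mouse line described earlier, and the labels name no Cre or transgene for it. The WT oocytes carried no other allele or treatment that the labels give, and no agent was applied to either genotype.

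Each library came from a pool of oocytes freed from ovaries by enzymes and picked by size under a binocular. The pools held 280, 340 and 251 oocytes in Tbpl2-/- and 400, 350 and 400 in WT. The study calls the libraries biological replicates, but which animals or litters gave each pool is not stated, so p-values measure the spread between these pools. Libraries of polyA RNA were made with a low-input kit, SMART-Seq v4, and gave single reads of 50 bases. Total counts on genes were 31467610 to 32488444 in Tbpl2-/- libraries and 39371254 to 42249552 in WT libraries, and 34223 genes had at least 1 count.

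TBPL2 is the oocyte paralogue of TBP, the protein that recognises the core promoter and nucleates the assembly of RNA polymerase II with its general factors. In growing mouse oocytes TBP protein is lost and TBPL2 takes its place, together with TFIIA. During the primary stage the oocyte leaves dormancy, lays down its zona pellucida, sends growth factors to the granulosa cells and begins to store the RNAs that the egg and the embryo will use.

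Below, values given in threes are the authors' normalised counts in replicates 1, 2 and 3. Fold changes are Tbpl2-/- over WT on the log2 scale, from edgeR's quasi-likelihood fit, each with its standard error (SE). A gene was called when its adjusted p was at most 0.05 and its change more than 2-fold. Members of gene lists count as lower or higher by adjusted p, whatever the fold.

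Tbpl2 (chr2:24071721-24096595 on GRCm38) gave 117, 75.2 and 99.9 normalised counts in Tbpl2-/- and 3090.2, 3317 and 3027 in WT (log2 fold change −4.99, SE 0.17). The genotypes of all 6 libraries thus followed their labels. RNA from the locus remained at a low level in each Tbpl2-/- library.

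Of 17715 genes tested, 3027 (17.1%) were called lower and 2754 (15.5%) were called higher in Tbpl2-/-. Without the limit on fold, 5111 (28.9%) were lower and 5403 (30.5%) higher, and 7201 did not pass. All 3 Tbpl2-/- libraries lay below all 3 WT libraries for 5508 genes (31.1%) and above them for 5743 (32.4%). The median log2 fold change over all tested genes was 0.02, a value that the scaling of the libraries largely sets. All changes are relative to the other RNAs of a library, and the amount of RNA per oocyte does not enter them. Large changes were more often falls: 451 genes were called lower by more than 8-fold and 317 were called higher by that much. Beyond 32-fold the numbers were 66 and 48.

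The genes called lower included RNAs that take large shares of an oocyte's reads. In Tbpl2-/- libraries they held 11.67, 10.97 and 11.19% of the normalised counts, against 30.5, 31.4 and 31.9% in WT libraries. The genes called higher held 10.76, 11.21 and 10.97% in Tbpl2-/- and 3.63, 3.35 and 3.27% in WT. Calls of smaller changes depended on how this composition was treated. The composition factors (TMM) were 1.11 to 1.16 in Tbpl2-/- and 0.902 to 0.952 in WT. Scaling to library size alone moved the median of all tested genes to 0.29 and gave 2215 genes lower and 4068 higher. Larger counts of a list that move by more than 1.5 times under that scaling are given beside the list, and small counts that move are left out.

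**Figure D1:**
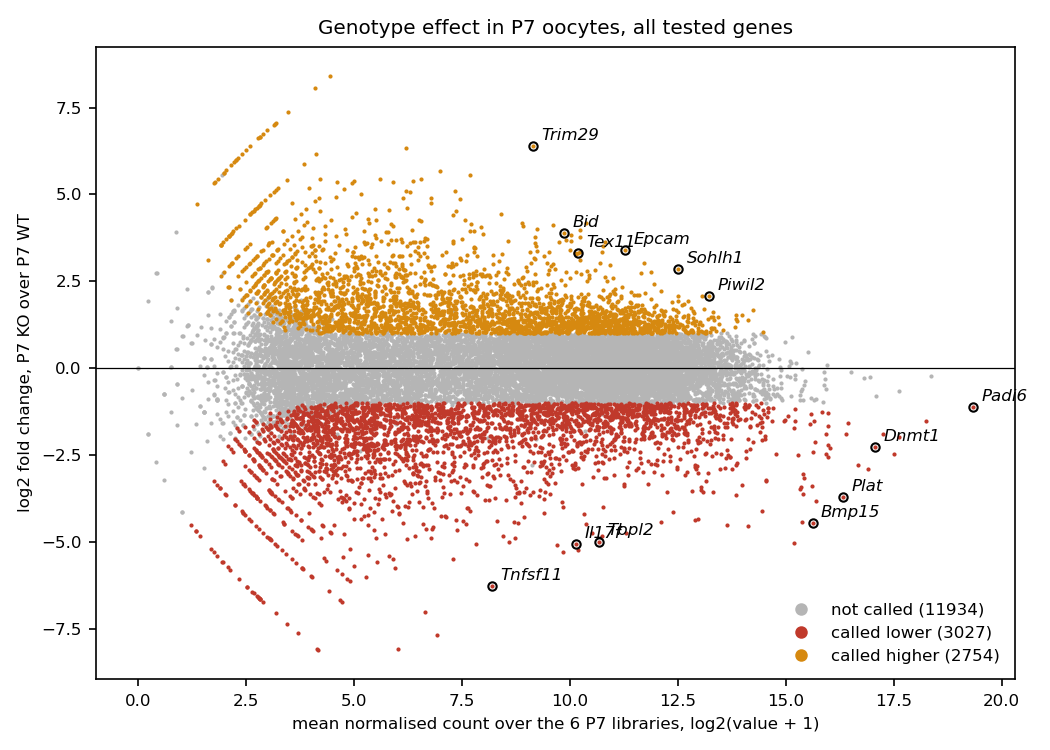
Log2 fold change (P7 KO, that is Tbpl2-/-, over P7 WT) against the mean normalised count over the 6 P7 libraries, as log2(value + 1), for the 17715 tested genes. Red points are the 3027 genes called lower, orange points the 2754 called higher, and grey points the rest. The genes with the most counts at the right, Padi6, Dnmt1, Plat and Bmp15 among those labelled, lie below 0.

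The shares called differed between classes of RNA. Of 14378 protein-coding genes tested, 14.5% were called lower and 16.4% higher. Of 1093 lincRNA genes, 33.8% were called lower and 14.3% higher, and of 516 processed pseudogenes 31.6% were called lower and 7.36% higher. The share called lower per chromosome ran between 13.9% on chromosome 11 and 21.9% on chromosome 1, and the share called higher between 12.1% on chromosome 14 and 20.7% on the X chromosome. Calls in both directions were thus spread over the whole genome.

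Sequence upstream of the annotated start was available from RefSeq (GRCm38.p6) for 12352 of the 17715 tested genes, and it is shown here because TBP-type factors are known for binding the TATA box. The motif TATAAA was searched on the strand of the gene with its first base between −40 and −16, where −1 is the base before the start. It was present in 51 of 1851 promoters of genes called lower (2.76%), in 26 of 1979 of genes called higher (1.31%) and in 106 of 8522 of tested genes without a call (1.24%), against 2.08% of all 32817 promoters in the RefSeq table. On the other strand of the same window the motif was in 0.648%, 0.253% and 0.375% of the same 3 sets, and in 0.737% of all promoters. GGGCGG, the GC box, searched on both strands of the 300 bases around the start, was in 50.2% of promoters of genes called lower, 56.6% of those called higher and 61.8% of those without a call, against 35.6% of all promoters. The 2 motifs were counted separately and a promoter could hold both. Of the 216 genes called lower by more than 8-fold with a promoter, 33.3% held a GC box, with a median of 6 CpG in 300 bases, and of the 202 called higher by more than 8-fold 45.5% did, with a median of 10. The median was 20 in promoters of tested genes without a call and 7 in all promoters of the table. A match is a description of letters and does not show that a factor binds, and oocytes may use other starts than the annotated ones.

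The stretches from −60 to −1 are printed for genes described below, 5′ to 3′ on the strand of the gene, with TATAAA in capitals where the search found it. The first 3 were called lower and hold the motif, with its first base at −29, −30 and −26. The next 4 were called higher and hold it at −33, −31, −29 and −29. The RefSeq start used for Il17f lies within the annotated gene, which spans chr1:20777146-20790617, and not at its 5′ end. Of the last 4, in which the search found no exact match, Tnfsf11, Bmp15 and Zp3 were called lower and Sohlh1 was called higher.
Il17f, chr1:20784271-20784330, minus strand: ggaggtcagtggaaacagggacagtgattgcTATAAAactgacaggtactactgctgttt
Phlda2, chr7:143502525-143502584, minus strand: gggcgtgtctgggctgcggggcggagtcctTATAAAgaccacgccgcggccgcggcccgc
Postn, chr3:54361047-54361106, plus strand: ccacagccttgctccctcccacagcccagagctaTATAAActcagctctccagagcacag
Fos, chr12:85473830-85473889, plus strand: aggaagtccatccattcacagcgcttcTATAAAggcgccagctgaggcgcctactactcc
Krt34, chr11:100041555-100041614, minus strand: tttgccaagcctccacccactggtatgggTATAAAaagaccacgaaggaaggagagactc
Krt31, chr11:100050552-100050611, minus strand: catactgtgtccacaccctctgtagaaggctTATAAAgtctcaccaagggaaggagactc
Krt32, chr11:100088270-100088329, minus strand: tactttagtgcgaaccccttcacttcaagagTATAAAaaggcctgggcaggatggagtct
Tnfsf11, chr14:78308044-78308103, minus strand: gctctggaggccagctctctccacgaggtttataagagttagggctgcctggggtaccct
Bmp15, chrX:6320725-6320784, minus strand: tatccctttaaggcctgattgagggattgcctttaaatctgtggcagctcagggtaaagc
Zp3, chr5:135980045-135980104, plus strand: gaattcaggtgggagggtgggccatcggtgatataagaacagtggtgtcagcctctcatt
Sohlh1, chr2:25847249-25847308, minus strand: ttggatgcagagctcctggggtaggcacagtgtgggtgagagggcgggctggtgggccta

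Among the falls were secreted ligands and RNAs of the growing oocyte, and the largest ones came close to silence. Tnfsf11, which encodes the TNF family cytokine RANKL, gave 8.08, 9.54 and 4.21 normalised counts in Tbpl2-/- and 590, 583 and 555 in WT (log2 fold change −6.26, SE 0.26). Il17f, a cytokine of the interleukin 17 family, gave 58.6, 57.2 and 78.8 in Tbpl2-/- and 2532, 2002 and 2059 in WT (−5.06, SE 0.18). Both genes were chosen among those with no overlap between genotypes, and each Tbpl2-/- library lay at least an order of magnitude below each WT library. Il17rc, a subunit of the receptor through which interleukin 17F acts, moved the other way, with 1606, 1584 and 1205 in Tbpl2-/- and 59.3, 90.9 and 103 in WT (4.13, SE 0.22). Whether these RNAs are translated was not measured.

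Insm1, a zinc finger transcription factor known from neuroendocrine cells, gave 114, 104 and 94.6 in Tbpl2-/- and 2617, 2838 and 2989 in WT (−4.74, SE 0.23). Mrap, an accessory protein of melanocortin receptors, gave 53.5, 38.1 and 48.4 in Tbpl2-/- and 1437, 1674 and 1739.5 in WT (−5.09, SE 0.19). In Gpr35, which encodes a G protein-coupled receptor, WT replicate 1 stood well above the other WT libraries, with 70.7, 39.2 and 68.3 in Tbpl2-/- and 3382, 1726 and 1685 in WT (−5.23, SE 0.32). Other large falls were those of the bone morphogenetic protein gene Bmp5 (−5.07), of Cpb1, known as a pancreatic carboxypeptidase (−4.66), of the choline transporter-like gene Slc44a5 (−4.63) and of the pregnancy-specific glycoprotein gene Psg20 (−4.45). Reads of Bmp5 and Psg20 are less certain, since 46.0% and 20.96% of their 50-base stretches also occur in other genes.

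The largest rises were of RNAs with few counts in WT oocytes of this stage. Trim29, a tripartite motif gene known from epithelia, gave 1186, 1145 and 994 normalised counts in Tbpl2-/- and 18.1, 18.4 and 3.07 in WT (6.40, SE 0.54). Gpr143, known as a receptor of pigment cells, gave 2475, 2563 and 2451 in Tbpl2-/- and 104, 177 and 138 in WT (4.18, SE 0.22). Otop3, a proton channel of the otopetrin family, gave 492, 377 and 329 in Tbpl2-/- and 6.03, 9.19 and 10.2 in WT (5.56, SE 0.30). The RNAs are of unlike kinds: Cntn6 (5.10) encodes a neural adhesion molecule, Muc3 (4.89) an intestinal mucin, Grk3 (4.87) a kinase of G protein-coupled receptors, Lhx6 (4.14) a homeodomain factor of interneurons and Atp8b4 (4.09) a P-type ATPase.

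**Figure D2:**
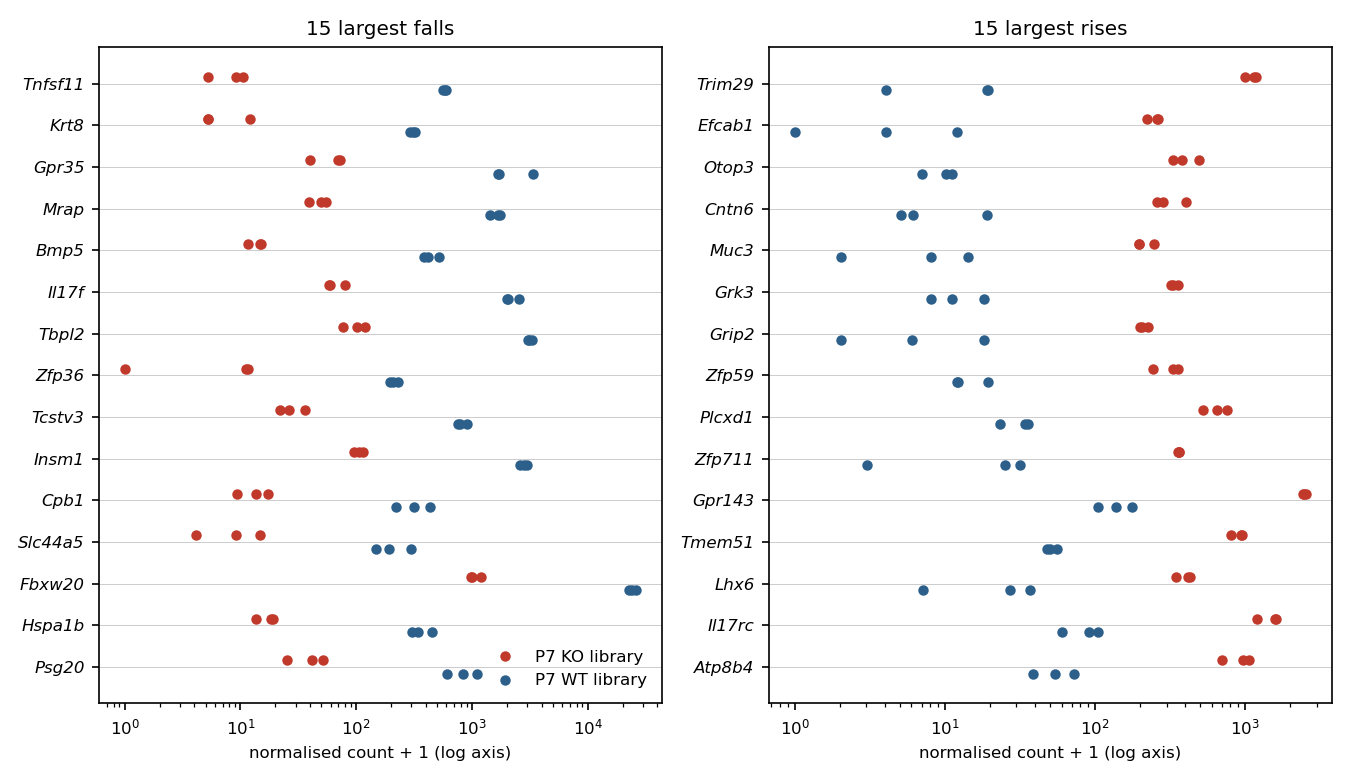
Normalised counts + 1 on a log axis in each library for the 15 largest falls (left) and the 15 largest rises (right), P7 KO in red above P7 WT in blue for each gene. The Tbpl2-/- and WT libraries do not overlap in any of the 30 genes, which were chosen for that and for size.

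By a stricter rule, a mean above 100 normalised counts in 1 genotype with each library of the other under 10, 8 genes passed in Tbpl2-/- alone and 17 in WT alone. The rule is a limit on counts, and whether such RNA was newly made or kept from an earlier stage was not tested. Of the 8 genes that passed in Tbpl2-/- alone, 6 are protein-coding. Zfp42, also known as Rex1 and a marker of pluripotent cells, gave 123, 149 and 128 in Tbpl2-/- and 6.03, 5.11 and 2.04 in WT. Cyp4v3, a cytochrome P450, gave 233, 152 and 156 in Tbpl2-/- and 0, 8.17 and 4.09 in WT. Rasgef1c, Tmem179 and Zfp607a were also among them. Of the 17 genes that passed in WT alone, 7 are protein-coding. Kcnh5, a voltage-gated potassium channel gene, was nearly absent from Tbpl2-/-, with 0, 0 and 1.05, and gave 131, 116 and 137 in WT. Sftpd, which encodes a surfactant protein, gave 1.01, 3.18 and 2.10 in Tbpl2-/- and 100, 88.9 and 171 in WT. Maf, a leucine zipper factor gene, gave 5.05, 6.36 and 8.41 in Tbpl2-/- and 76.3, 151 and 139 in WT.

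Genes were grouped by function in 27 lists, and most lists tied to oocyte growth leaned to the lower side. Over all tested genes 28.9% were lower and 30.5% higher, and the counts of each list are to be read against these shares. All 12 tested members of the zona pellucida and egg surface list were lower, with a median of −1.75. The zona glycoprotein gene Zp1 gave 27116, 26204 and 25557 normalised counts in Tbpl2-/- and 202631, 172843 and 175288 in WT (−2.79, SE 0.13). Zp3 gave a mean of 81681 ± 9735 in Tbpl2-/- and 323945 ± 14867 in WT (SD, n = 3 each). Izumo1r, which encodes JUNO, the egg's receptor for sperm IZUMO1, gave 767, 600 and 677 in Tbpl2-/- and 5196, 4417 and 5991 in WT (−2.91, SE 0.14). The genes of oocyte secreted proteins Oosp3 (−4.42) and Oosp1 (−3.57) fell furthest. Libraries of the genotypes did not overlap for any of these 5 genes, as for 2919 of the 3027 genes called lower.

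Of 13 tested members of the list of oocyte-secreted factors and their targets, 8 were lower, 3 higher and 2 did not pass. Bmp15 gave 4379.6, 4436 and 4234 in Tbpl2-/- and 112738, 90036 and 85994 in WT, and Fgf8 gave 1120.1, 993 and 952 in Tbpl2-/- and 5722, 6983 and 8378 in WT. Receptors or channels, not ligands, were the 3 that rose. Kit, the receptor by which the oocyte answers granulosa KIT ligand, gave 35532, 43717 and 41823 in Tbpl2-/- and 31325, 23912 and 17512 in WT (0.75, SE 0.16). The neuropilin gene Nrp1 (0.52) and the connexin gene Gjc1 (0.55) were higher by less. The ligand gene Kitl gave 158, 144 and 177 in Tbpl2-/- and 137, 143 and 170 in WT and did not pass (0.11, SE 0.23).

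The subcortical maternal complex and the cytoplasmic lattices are structures under the egg membrane that embryos need for their first divisions. Of 13 tested members of that list 9 were lower, none was higher and 4 did not pass, with a median of −0.86. Ooep gave 6519, 5881 and 7028 in Tbpl2-/- and 57986, 92602 and 89312 in WT (−3.61, SE 0.18), and Npm2, a nucleoplasmin that remodels sperm chromatin, fell by 2.14 on the log2 scale. Padi6, an enzyme of the lattices, gave 412749.7, 419704 and 402304 in Tbpl2-/- and 923554, 884119.6 and 908138 in WT (−1.12, SE 0.11). Nlrp5, known as MATER, did not pass, with 101632, 119888 and 124116 in Tbpl2-/- and 181264, 112338 and 122724 in WT (−0.25, SE 0.20), where WT replicate 1 stood apart from the other WT libraries. Members of the list thus ranged widely in the size of their change.

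**Figure D3:**
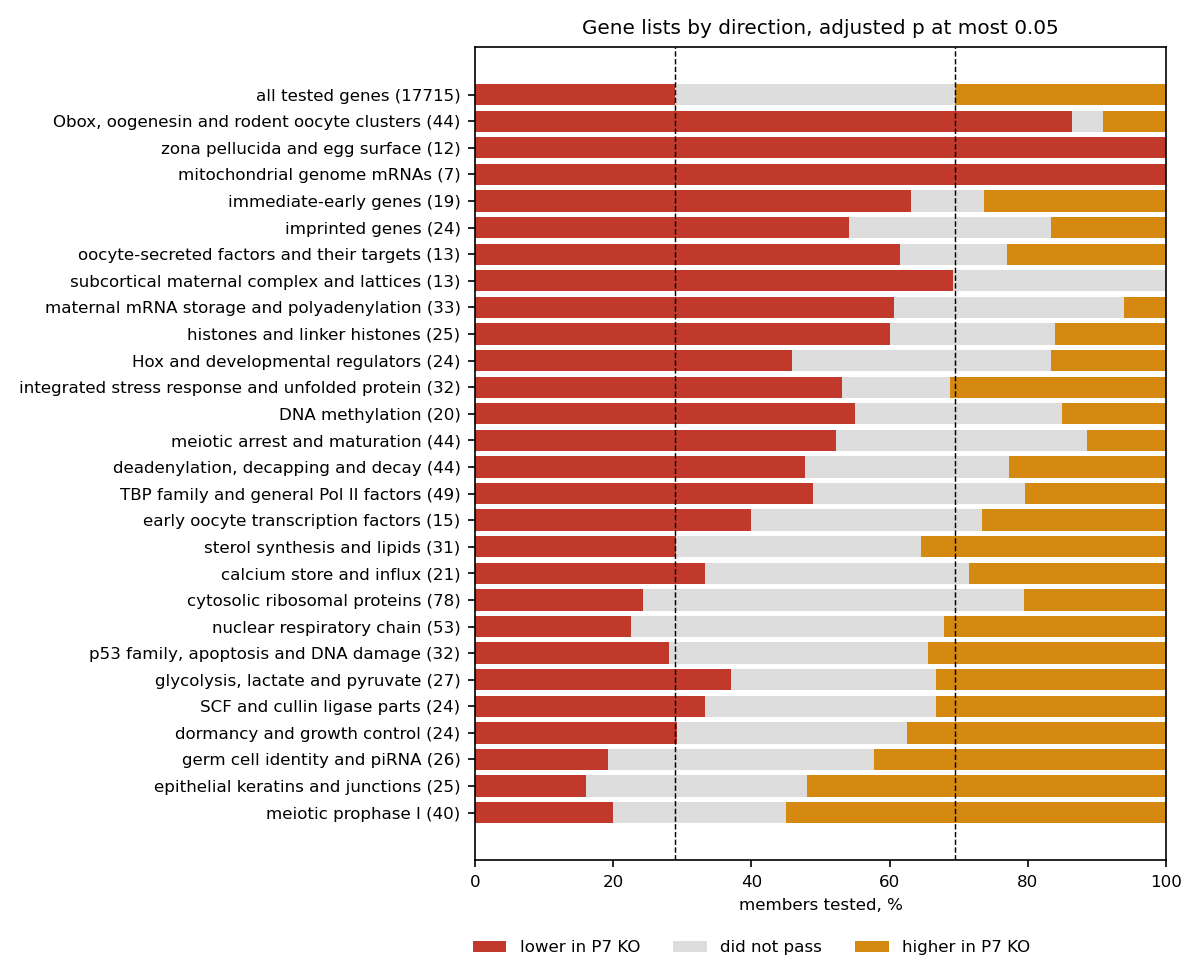
Share of the tested members of each of the 27 gene lists that were lower in P7 KO (red), higher in P7 KO (orange) or did not pass (grey) at an adjusted p of at most 0.05, with the number tested in brackets and lists in order of their median log2 fold change. Dashed lines mark the shares over all 17715 tested genes, 28.9% lower and 30.5% higher, so the zona pellucida and rodent oocyte cluster lists at the top stand far to the red side and the meiotic prophase list at the bottom to the orange side.

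Of 15 tested early oocyte transcription factors 6 were lower (40.0%), 4 higher (26.7%) and 5 did not pass, with a median of −0.30, against 28.9% lower and 30.5% higher among all genes. The 6 include Tbpl2 itself, whose fall is the genotype and not a result about the list. They also include Foxl2 (−2.21), which is counted among the granulosa markers below as well. Sohlh1, a helix-loop-helix factor of the dormant and early growing oocyte, gave 12712, 8700.3 and 9259.9 in Tbpl2-/- and 1231, 1791 and 1305 in WT (2.84, SE 0.22, adjusted p = 7.66e-08). Its partner Sohlh2 gave 2047, 2494 and 2048 in Tbpl2-/- and 706, 737 and 520 in WT (1.76, SE 0.18). Prdm1, known as BLIMP1 and for its role in primordial germ cells, gave 559, 457 and 383 in Tbpl2-/- and 197, 90.9 and 81.8 in WT (1.94, SE 0.31). All 3 genes had every Tbpl2-/- library above every WT library, as did 2704 of the 2754 genes called higher.

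On the lower side of that list, Tfap2c gave 825, 760 and 770 in Tbpl2-/- and 4051, 3120.2 and 4349.7 in WT (−2.27, SE 0.13). Foxo3, which holds primordial follicles dormant, gave 1666, 1687 and 1502 in Tbpl2-/- and 3339, 4253 and 5109 in WT (−1.37, SE 0.16), and Lhx8 fell by 0.67 on the log2 scale. Figla, the helix-loop-helix activator of the zona genes, did not pass, with 6608, 5243 and 5756 in Tbpl2-/- and 4743, 7052 and 7223 in WT (−0.09, SE 0.18). The zona genes it is known to activate were lower, as given above.

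Genes of meiotic prophase, which the oocyte enters before birth and in which it then stays arrested, were mostly higher in Tbpl2-/-. Of 40 tested members 22 were higher, 8 lower and 10 did not pass, with a median of 0.66. Tex11, which acts in recombination, gave 1897, 2408 and 2067 in Tbpl2-/- and 258, 183 and 208 in WT (3.31, SE 0.17). Terb2, which ties telomeres to the nuclear envelope, gave 182, 198 and 191 in Tbpl2-/- and 4.02, 8.17 and 31.7 in WT (3.71, SE 0.44). Meiob, a single-strand DNA binding protein of meiotic recombination, gave 94.9, 122 and 134 in Tbpl2-/- and 26.1, 27.6 and 9.20 in WT (2.49, SE 0.32). Tex15 gave 8103, 10717 and 10837 in Tbpl2-/- and 2845, 3806 and 1769 in WT (1.83, SE 0.30). None of these 4 genes overlapped between genotypes, which also holds for 2704 of the 2754 genes called higher.

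The 8 lower members of the prophase list included parts of the synaptonemal complex and of the break machinery. Mei4, which acts in break formation, gave 15.2, 41.3 and 28.4 in Tbpl2-/- and 139, 183 and 172 in WT (−2.52, SE 0.37). Sycp2, a lateral element protein, gave 1573, 2158 and 1967 in Tbpl2-/- and 5041, 6215 and 4909.8 in WT (−1.49, SE 0.14). Sun1, the nuclear envelope anchor of telomeres, fell by 1.09, Syce2 of the central element by 0.90 and Tex12 by 0.80 on the log2 scale. The recombination mediator Brca2 did not pass, with 5285, 5410.5 and 5841 in Tbpl2-/- and 6913, 6140.4 and 5586 in WT.

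Genes of germ cell identity and the piRNA pathway also leaned higher, with 11 of 26 members higher (42.3%), 5 lower (19.2%) and 10 that did not pass, and a median of 0.33. Of all genes 30.5% were higher and 28.9% lower. By library size alone 17 were higher and 3 lower. The genes of 3 PIWI proteins, which bind piRNAs and silence transposons, rose. Piwil2 gave 14577, 15601 and 16245 in Tbpl2-/- and 4698, 3221 and 3212 in WT (2.08, SE 0.15), and Piwil4 gave 143, 173 and 162 in Tbpl2-/- and 38.2, 9.19 and 30.7 in WT (2.63, SE 0.35). Piwil1, known from male germ cells in the mouse, gave 218, 270 and 178 in Tbpl2-/- and 84.4, 49.02 and 59.3 in WT (1.80, SE 0.39). The piRNA pathway genes Mov10l1, an RNA helicase (2.22, SE 0.17), and Gpat2 (1.49, SE 0.13) were higher too. Ddx4, the helicase known as VASA, gave 21879, 26007 and 24702 in Tbpl2-/- and 17295, 15129 and 12361 in WT (0.71, SE 0.12).

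Dazl, which activates translation of maternal RNAs, was lower instead, with 13202, 13962 and 13499 in Tbpl2-/- and 32143, 35143 and 27422 in WT (−1.20, SE 0.11). Nanos2 fell by 1.14, though 47.4% of its 50-base stretches also occur in Gm45058, a gene whose exons overlap it. The piRNA methyltransferase gene Henmt1 fell by 1.11, with 12.4% of its stretches shared.

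**Figure D4:**
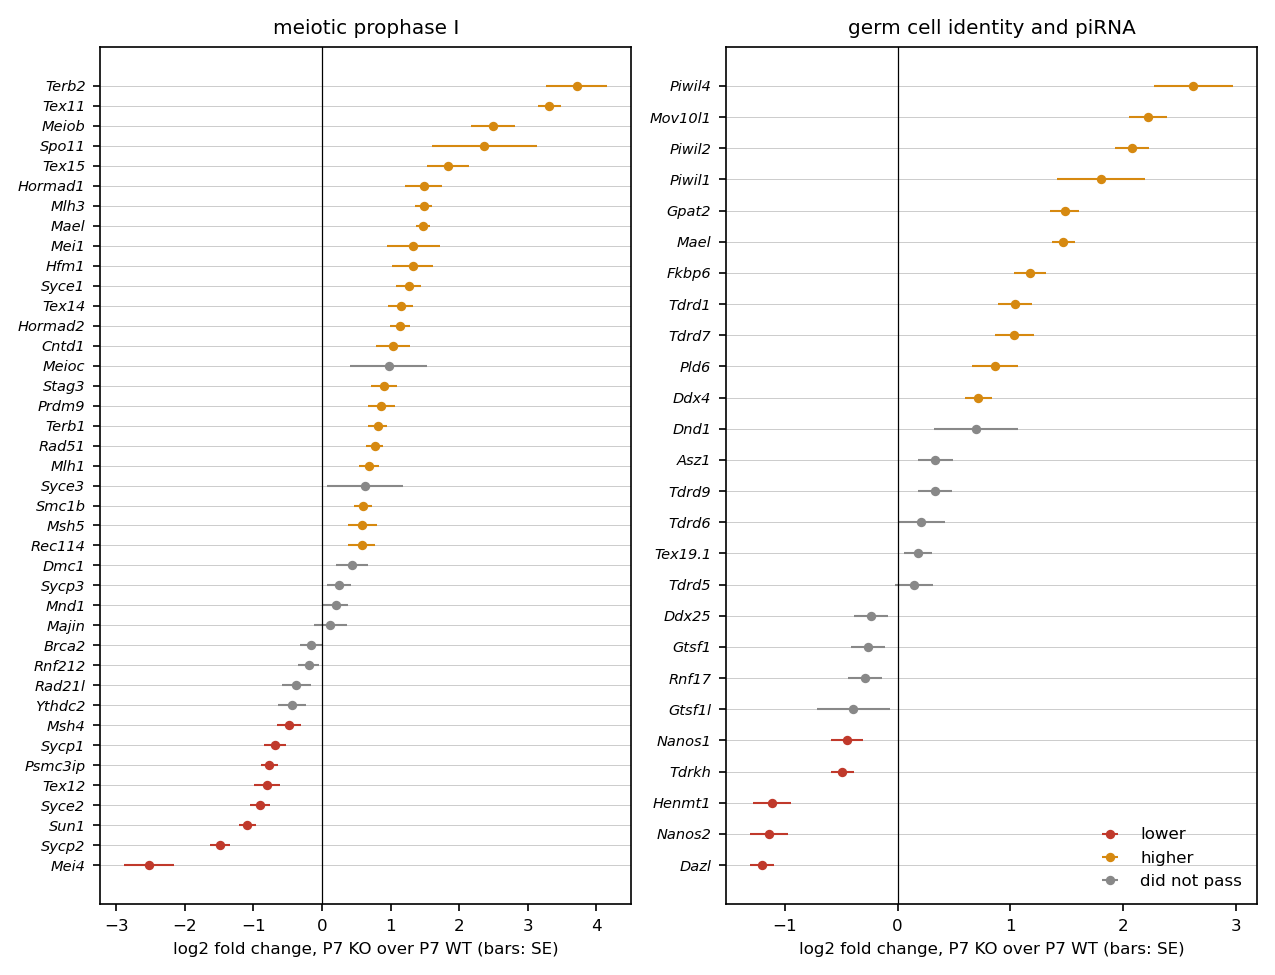
Log2 fold change (P7 KO over P7 WT) with SE bars for all 40 tested members of the meiotic prophase list (left) and all 26 of the germ cell identity and piRNA list (right), coloured by direction. Terb2, Tex11 and Piwil4 stand at the top and Mei4, Sycp2 and Dazl at the bottom.

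Genes that hold the oocyte in meiotic arrest or drive its maturation were more often lower. Of 44 tested members 23 were lower, 5 higher and 16 did not pass, with a median of −0.43 (10 higher by library size alone). Plat, the tissue plasminogen activator that oocytes store as a silent maternal RNA, gave 12125, 11051 and 11315 in Tbpl2-/- and 173610.5, 142425 and 143552 in WT (−3.72, SE 0.12). Pttg1, the securin gene, gave 9521, 7460.3 and 8494 in Tbpl2-/- and 29395, 36033 and 43012 in WT (−2.07, SE 0.15). The CDK-binding protein gene Cks1b fell by 2.36 and Fbxo30 by 1.83 on the log2 scale. The 5 that rose include the kinases Wee1 (0.57) and Pkmyt1 (0.60), which restrain CDK1, the APC/C activator gene Fzr1 (0.87) and the phosphatase gene Cdc25c (1.04, with 11.9% of its stretches shared).

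Genes of proteins that store and mask maternal RNAs were lower in 20 of 33 tested members and higher in 2, and 11 did not pass. Their median was −0.68. By library size alone 6 were higher. With no filter, with a replicate block, and without Tbpl2-/- replicate 1 or 3 or WT replicate 2 or 3, 1 was higher. Pabpn1l, an embryonic poly(A)-binding protein, gave 523, 906 and 825 in Tbpl2-/- and 9776, 23324 and 12874 in WT (−4.33, SE 0.52). Patl2, a repressor in oocyte ribonucleoprotein particles, gave 3489, 3507 and 3541 in Tbpl2-/- and 23132, 18602 and 17190.3 in WT (−2.46, SE 0.13). Eif4e1b, the gene of the oocyte form of the cap-binding protein, fell by 2.17 on the log2 scale, and Zar1l fell by 1.89. Pabpc1, the poly(A)-binding protein of somatic cells, rose, with 1529, 1779.5 and 1629.5 in Tbpl2-/- and 663, 795 and 773 in WT (1.17, SE 0.17).

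Of 44 tested genes of deadenylation, decapping and decay, 21 were lower (47.7%), 10 higher (22.7%) and 13 did not pass, with a median of −0.38 (16 higher by library size alone). Of all genes 28.9% were lower and 30.5% higher. Btg4, the adaptor that recruits the CCR4-NOT deadenylase to maternal RNAs at maturation, gave 7851, 6242 and 6847 in Tbpl2-/- and 66015, 66828 and 95127 in WT (−3.43, SE 0.15). The decapping activator gene Dcp1a gave 3459, 3656 and 3481 in Tbpl2-/- and 27868, 19100.3 and 17104 in WT (−2.58, SE 0.18). Zfp36, whose protein directs the decay of AU-rich RNAs, gave 10.1, 0 and 10.5 in Tbpl2-/- and 193, 208 and 230 in WT (−4.88, SE 0.43), and the deadenylase genes Pan3 (−2.04) and Cnot6l (−1.80) were lower as well. In contrast the scaffold of the deadenylase, Cnot1, gave 10248, 17337 and 17415 in Tbpl2-/- and 8427, 4976 and 2872 in WT (1.49, SE 0.35), with a wide spread in both genotypes. The piRNA trimmer gene Pnldc1 (1.06) and the decapping gene Edc3 (2.00, with 20.4% of its stretches shared with Clk3) were higher.

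Of 49 tested members of the list of the TBP family and general polymerase II factors, 24 were lower (48.98%), 10 higher (20.4%) and 15 did not pass, with a median of −0.31, against 28.9% and 30.5% of all genes. The 24 include Tbpl2 itself, whose fall is the genotype and not a result about the list. By library size alone 14 were lower. Taf4, a TFIID subunit, gave 417, 329 and 364 in Tbpl2-/- and 2465, 3075 and 2944 in WT (−2.92, SE 0.14). Gtf2a1, which encodes the large subunit of TFIIA, gave 543, 768 and 564 in Tbpl2-/- and 2144, 2752 and 2585 in WT (−1.98, SE 0.39). Gtf2a1l, its germ cell paralogue, did not pass, with 6735, 5901 and 6701 in Tbpl2-/- and 5972, 5629.7 and 5729 in WT (0.18, SE 0.10, and higher by library size alone). Tbpl1, the remaining TBP-like gene, gave 344, 445 and 397 in Tbpl2-/- and 1706, 1984 and 1974 in WT (−2.24, SE 0.17), with 11.1% of its stretches shared with Slc2a12. Btaf1, an ATPase that takes TBP off DNA, gave 4925, 6247 and 6504 in Tbpl2-/- and 3172, 2626 and 1939.8 in WT (1.21, SE 0.18), and the TFIIH gene Gtf2h4 (1.28) and the TFIIE gene Gtf2e1 (0.98) were higher.

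Among genes of DNA methylation, 11 of 20 were lower, 3 higher and 6 did not pass (5 higher by library size alone). Dnmt1, which maintains methylation and is stored in the egg, gave 42886, 47104 and 50404 in Tbpl2-/- and 265390.0, 206726 and 214647 in WT (−2.27, SE 0.19). Tet3, which oxidises methylcytosine in the zygote, gave 2992, 4253 and 3794 in Tbpl2-/- and 21062, 28253 and 27566 in WT (−2.78, SE 0.51). Dnmt3l, the cofactor needed to set maternal imprints in the growing oocyte, gave 774, 704 and 740 in Tbpl2-/- and 3627, 2765 and 3491 in WT (−2.14, SE 0.13). Zfp57, which guards imprints in the embryo, fell by 1.52. Dnmt3c, a rodent methyltransferase known from male germ cells, gave 819, 854 and 847 in Tbpl2-/- and 284, 198 and 250 in WT (1.80, SE 0.17), with 23.6% of its stretches shared with Dnmt3b, which was itself higher (0.80, SE 0.13).

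Of 25 tested histone genes and their handlers, 15 were lower, 4 higher and 6 did not pass, with a median of −0.63. The oocyte linker histone H1foo gave 32467, 26176 and 27561 in Tbpl2-/- and 186079.7, 202437 and 261636 in WT (−2.90, SE 0.16). Slbp, which binds the stem-loop of histone mRNAs, gave 13326, 11132 and 10653 in Tbpl2-/- and 64978, 66403 and 70621 in WT (−2.51, SE 0.15). The somatic linker histone Hist1h1c was higher, with 1864, 1545 and 1725 in Tbpl2-/- and 738, 870 and 918 in WT (1.04, SE 0.15). H1f0, another linker histone of somatic cells, was lower like H1foo, with 892, 759 and 752 in Tbpl2-/- and 3695, 3828 and 4633 in WT (−2.32, SE 0.14). Replication-dependent histone mRNAs lack a poly(A) tail, and a library of polyA RNA counts them poorly.

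Several families found chiefly in rodent oocytes fell as blocks. Of 44 tested members of the list of Obox, oogenesin and similar clusters, 38 were lower, 4 higher and 2 did not pass, with a median of −2.38. Many of these genes are near copies of each other, so reads can be lost or split among them. Along the genome, 131 runs of at least 3 neighbouring tested genes were called lower and 90 were called higher, and 10 and 3 of these held 6 or more genes. Of all tested genes 17.1% were called lower and 15.5% higher. Whether the runs are more than these shares alone would give was not tested. The longest run was 12 genes of the mitochondrial genome, all lower, and 4 runs of 7 genes, all lower, came next. The runs described in the following were picked after their values were seen.

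A run of 7 genes lower lies at chr9:109139447-109449140 and holds the F-box genes Fbxw21, Fbxw13, Fbxw20, Fbxw14, Fbxw28, Fbxw22 and Fbxw16. Fbxw20 gave 988, 1004 and 1192 in Tbpl2-/- and 26336, 22669 and 24106 in WT (−4.50, SE 0.14), with 5.97% of its stretches shared with neighbours. Shared stretches made up 58.9% of Fbxw14, 61.5% of Fbxw28, 21.5% of Fbxw16 and 10.6% of Fbxw22. Fbxw21 gave 2173.6, 2212 and 2079.5 in Tbpl2-/- and 30574, 26171 and 24676 in WT (−3.64, SE 0.12). At the end of the run Fbxw16 gave 6955, 6935 and 6824 in Tbpl2-/- and 25533, 19755 and 18697 in WT (−1.61, SE 0.15). The whole run moved down, but not in proportion. In the Khdc1 cluster on chromosome 1, Khdc1b gave 20213, 23369 and 23137 in Tbpl2-/- and 122948, 108006 and 102810.5 in WT (−2.30, SE 0.11), and the other 5 genes of its run were called lower too. Of these, Khdc1c shared 43.1% of its stretches with other genes, Khdc1a and Khdc1b among them. The call of Gm16327 was lost in 3 other settings.

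A run of 6 genes higher lies at chr11:100011195-100096241 and holds the type I hair keratin genes Krt33a, Krt33b, Krt34, Krt31, Krt32 and Krt35, known from the hair shaft. Krt33b gave 451, 319 and 320 in Tbpl2-/- and 80.37, 73.54 and 76.65 in WT (2.26, SE 0.24), with 24.2% of its stretches shared. Krt35, with 2.75% shared, gave 192, 137 and 166 in Tbpl2-/- and 29.1, 32.7 and 55.2 in WT (2.10, SE 0.28). Shared stretches made up 33.1% of Krt34, 28.1% of Krt31 and 17.8% of Krt33a. The genotypes did not overlap in any of the 6 genes, as in 2704 of the 2754 genes called higher. The promoters of Krt34, Krt31 and Krt32 are among those printed above with TATAAA.

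**Figure D5:**
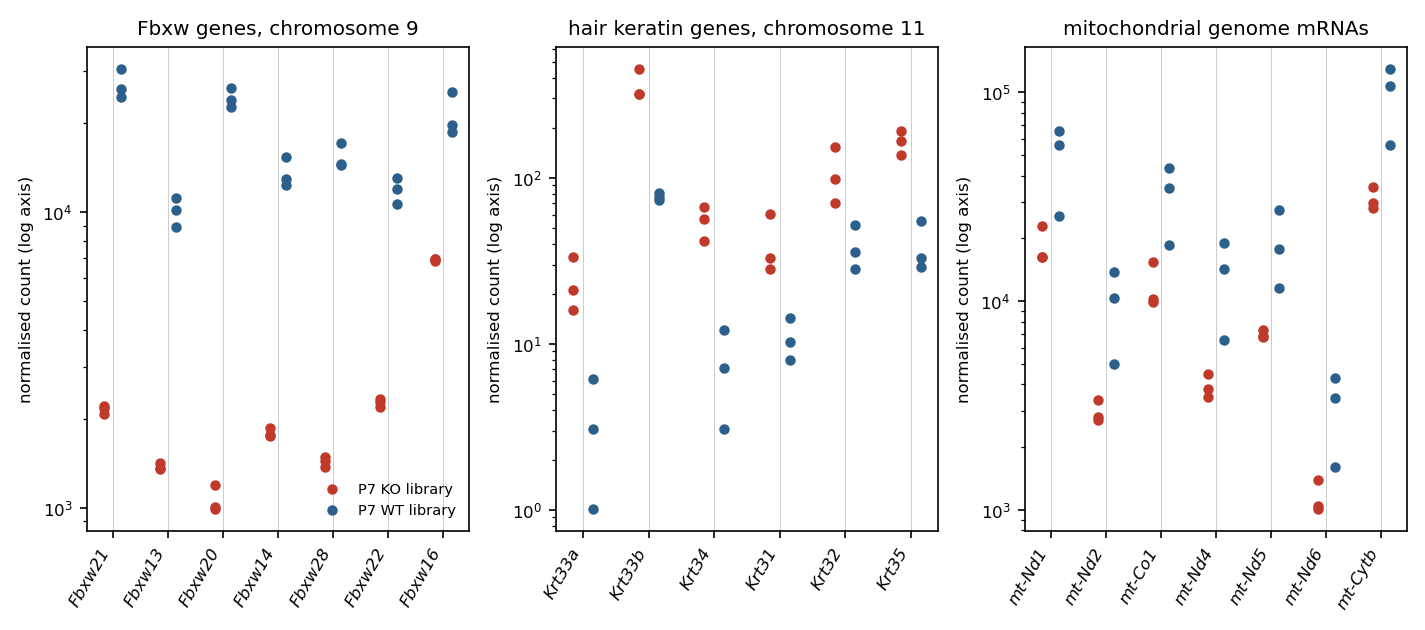
Normalised counts on a log axis in each P7 KO library (red, left) and P7 WT library (blue, right) for the Fbxw run on chromosome 9, the hair keratin run on chromosome 11 and the 7 tested mRNAs of the mitochondrial genome, genes in order along the chromosome. The Fbxw genes are lower and the hair keratins higher in all 3 Tbpl2-/- libraries, and in the mitochondrial mRNAs 1 WT library, replicate 1, sits close to the Tbpl2-/- libraries.

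Epithelial genes were more often higher. Of 25 tested keratin and junction genes 13 were higher (52.0%), 4 lower (16.0%) and 8 did not pass, with a median of 0.34, against 30.5% higher and 28.9% lower among all genes. Epcam, an epithelial adhesion molecule, gave 4555, 4814 and 4197 in Tbpl2-/- and 364, 524 and 412 in WT (3.40, SE 0.19). The desmosomal plaque gene Pkp3 gave 202, 157 and 156 in Tbpl2-/- and 39.2, 30.6 and 51.1 in WT (2.10, SE 0.25). Krt8, a keratin of simple epithelia and of the egg, went the other way, with 11.1, 4.24 and 4.21 in Tbpl2-/- and 308, 319 and 289 in WT (−5.50, SE 0.45), although 29.7% of its stretches occur elsewhere. The epithelial factor gene Ehf fell by 1.58 on the log2 scale and Elf3, of the same ETS subfamily, rose by 1.34.

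Immediate-early genes, which cells switch on within minutes of a stimulus, were mostly lower. Of 19 tested members 12 were lower (63.2%), 5 higher (26.3%, against 30.5% of all genes) and 2 did not pass, with a median of −1.13. Egr1 gave 393, 276 and 384 in Tbpl2-/- and 3441, 2781 and 3251 in WT (−3.15, SE 0.17), and the phosphatase gene Dusp1 gave 228, 202 and 182 in Tbpl2-/- and 3974, 2937 and 2975 in WT (−3.99, SE 0.16). The AP-1 genes Fos and Jun were higher: Fos gave 288, 196 and 209 in Tbpl2-/- and 73.3, 90.9 and 93.0 in WT (1.45, SE 0.22), and Jun gave 129, 127 and 149 in Tbpl2-/- and 19.09, 33.7 and 47.0 in WT (2.04, SE 0.36). Atf3, which dimerises with Jun, rose as well (2.99, SE 0.29).

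Of 32 tested members of the integrated stress and unfolded protein list 17 were lower (53.1%), 10 higher (31.2%) and 5 did not pass, with a median of −0.46, against 28.9% and 30.5% of all genes. The serine synthesis gene Psat1 gave 291, 410 and 364 in Tbpl2-/- and 19.09, 33.7 and 59.3 in WT (3.26, SE 0.36), and Trib3, a target of ATF4, gave 486, 440 and 490 in Tbpl2-/- and 96.4, 82.7 and 130 in WT (2.21, SE 0.17). The growth brake Ddit4 gave 65.7, 80.5 and 93.6 in Tbpl2-/- and 536, 422 and 1085 in WT (−3.07, SE 0.71). Ern1, which encodes the sensor IRE1, gave 3499, 5607 and 5016 in Tbpl2-/- and 17500.4, 15137 and 15231 in WT (−1.74, SE 0.35). The heat shock gene Hspa1b fell by 4.49, but 62.3% of its stretches are shared with Hspa1a and Gm20481.

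Of 32 tested genes of the p53 family, apoptosis and DNA damage, 9 were lower, 11 higher and 12 did not pass, against 28.9% and 30.5% of all genes, with a median of −0.03. The BCL2 family nevertheless held some of the largest changes. Bid, which links caspases to the mitochondrion, gave 1810.0, 1778 and 1628 in Tbpl2-/- and 118.5, 110.3 and 129.8 in WT (3.88, SE 0.21), with 16.4% of its stretches shared with Bcl2l13. Pmaip1, known as NOXA, gave 431, 583 and 380 in Tbpl2-/- and 61.3, 99.1 and 60.3 in WT (2.67, SE 0.31). Bcl2l10, an oocyte member of the family, gave 7775, 6327 and 6873 in Tbpl2-/- and 89248, 90479 and 120412 in WT (−3.82, SE 0.15). Ccng1, a target of p53, gave 1982, 2164 and 2126 in Tbpl2-/- and 689, 591 and 528 in WT (1.81, SE 0.15). Trp53 did not pass, with 1018, 1165 and 1041 in Tbpl2-/- and 1132, 1306 and 1283 in WT (−0.19, SE 0.14). Cell death itself was not measured.

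Genes of dormancy and growth control by PI3K and mTOR were lower in 7 of 24, higher in 9, and 8 did not pass, with a median of 0.16 (3 lower by library size alone). These shares, 29.2% and 37.5%, lie near the 28.9% and 30.5% of all genes. Eif4ebp1, the translation repressor that mTOR inactivates, gave 3858, 3257 and 3183 in Tbpl2-/- and 727, 1095 and 959 in WT (1.91, SE 0.18). Rptor and Tsc2, an mTOR complex part and a brake on it, were each higher by 1.23. Cdkn1b, which restrains activation of primordial follicles, gave 63.6, 55.1 and 45.2 in Tbpl2-/- and 125, 285 and 350 in WT (−2.19, SE 0.34), and here WT replicate 1 was below the other WT libraries.

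All 7 tested mRNAs of the mitochondrial genome were lower, with a median of −1.43, and the WT libraries differed among themselves. The sum over all 13 mitochondrial mRNAs, 6 of which had too few counts to test, was 89389, 68413.5 and 70545.4 normalised counts in Tbpl2-/- and 124844.5, 302688 and 244531 in WT. WT replicate 1 was the lowest of the WT libraries by a wide margin, though above each Tbpl2-/- library. The mRNA mt-Cytb gave 35083, 27848 and 29414 in Tbpl2-/- and 55960.0, 129457 and 107883 in WT (−1.65, SE 0.33). Without WT replicate 2, or without WT replicate 3, 4 members were lower, and mt-Nd5, mt-Co1 and mt-Nd6 did not pass. These 3 also missed the threshold without Tbpl2-/- replicate 2 or 3, and mt-Nd5 without Tbpl2-/- replicate 1. Of mt-Co1 51.1% and of mt-Nd4 62.2% of the stretches also occur in other genes, so their counts are less certain.

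The nuclear genes of the respiratory chain did not follow. Of 53 tested members 17 were higher (32.1%), 12 lower (22.6%) and 24 did not pass, with a median of −0.05. Of all genes 30.5% were higher, near the share of this list, and 28.9% were lower. Only 6 members were lower by library size alone, without Tbpl2-/- replicate 2, without WT replicate 2 or without WT replicate 3. Cyc1, the cytochrome c1 gene, gave 12627, 10928 and 10258 in Tbpl2-/- and 3649.8, 3739 and 4095 in WT (1.58, SE 0.15), and the complex I gene Ndufs1 gave 4464, 5347 and 4832 in Tbpl2-/- and 2092, 1765 and 1352 in WT (1.51, SE 0.15). Uqcrc1 (1.43) was higher as well, while the small subunit genes Uqcrh (−0.96) and Ndufs4 (−0.96) were lower. Cytosolic ribosomal protein genes were lower in 19 of 78, higher in 16, and 43 did not pass, below the shares of all genes in both directions. Without WT replicate 1, 30 were lower and 10 higher, and 11 were lower by library size alone.

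In glycolysis and pyruvate use, 10 of 27 were lower (37.0%), 9 higher (33.3%) and 8 did not pass, near the 28.9% and 30.5% of all genes. The phosphofructokinase gene Pfkp gave 39.4, 43.5 and 16.8 in Tbpl2-/- and 530, 352 and 399 in WT (−3.66, SE 0.29). Ldhb, which interconverts lactate and pyruvate, gave 79293, 57250.1 and 60622 in Tbpl2-/- and 258547, 213615 and 267041 in WT (−1.89, SE 0.21), with 20.99% of its stretches shared with Gm5514. Pdha1, the entry enzyme of pyruvate into the mitochondrion's cycle, gave 7333, 7359 and 7128 in Tbpl2-/- and 3452, 3451 and 3078 in WT (1.15, SE 0.12), with 12.9% of its stretches shared. Sterol and lipid genes were lower in 9 of 31 (29.0%) and higher in 11 (35.5%), also near the shares of all genes, and 11 did not pass. Sqle, a rate-controlling enzyme of cholesterol synthesis, gave 4889, 5247 and 5019 in Tbpl2-/- and 2537, 2087 and 1738 in WT (1.27, SE 0.14). The regulator of fatty acid synthesis Srebf1 was lower, with 2204, 2479 and 2165 in Tbpl2-/- and 5317, 4432 and 6035 in WT (−1.19, SE 0.12).

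Imprinted genes were lower in 13 of 24 (54.2%), higher in 4 (16.7%), and 7 did not pass, with a median of −0.98 (7 higher by library size alone). Of all genes 28.9% were lower and 30.5% higher. Phlda2, a brake on placental growth expressed from the maternal copy, gave 18.2, 10.6 and 9.46 in Tbpl2-/- and 118, 122 and 162 in WT (−3.36, SE 0.30). Plagl1 gave 319, 431 and 380 in Tbpl2-/- and 1219, 1291 and 1805 in WT (−1.91, SE 0.20). Impact, expressed from the paternal copy in somatic tissue, was higher, with 4131, 5118 and 4717 in Tbpl2-/- and 1489, 1698 and 1441 in WT (1.61, SE 0.12). Which parental copy gave these RNAs was not measured.

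Of 21 genes of calcium stores and influx 7 were lower (33.3%), 6 higher (28.6%) and 8 did not pass (4 lower by library size alone), near the 28.9% and 30.5% of all genes. The inositol trisphosphate receptor gene Itpr1, through which the egg answers fertilisation, did not pass, with 3355, 4540.4 and 4131 in Tbpl2-/- and 3945, 4309 and 3756 in WT (0.02, SE 0.32), while Camk2g, the kinase that carries the calcium signal in the egg, fell by 1.17. Of 24 parts of SCF and cullin ligases 8 were lower and 8 higher (33.3% each), likewise near the shares of all genes, and 8 did not pass (3 lower by library size alone), Eloc falling by 1.70 and Cul9 rising by 1.66. Of 24 tested Hox and other developmental regulators 11 were lower (45.8%), 4 higher (16.7%) and 9 did not pass, with a median of −0.55 (7 higher by library size alone). Pax6 gave 117, 154 and 138 in Tbpl2-/- and 633, 644 and 507 in WT (−2.11, SE 0.18), and Hoxd8 gave 139, 129 and 116 in Tbpl2-/- and 37.2, 54.1 and 37.8 in WT (1.59, SE 0.23).

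Markers of granulosa cells had lower summed counts than oocyte markers, and most were lower in Tbpl2-/-. The summed counts of 16 oocyte markers were 987398, 1015719 and 986070.2 in Tbpl2-/- and 2831221, 2574817 and 2603208 in WT. Of 22 granulosa markers 17 were lower, none was higher and 5 did not pass, with a median of −1.68. Their summed counts were 15267, 13124 and 12533 in Tbpl2-/- and 28989, 24863 and 27638 in WT, of which Serpine2, picked after its values were seen, gave 11843, 10339.9 and 9453 in Tbpl2-/- and 22032, 18758 and 19593 in WT. Amh, a hormone gene of granulosa cells, gave 3.03, 3.18 and 8.41 in Tbpl2-/- and 73.3, 27.6 and 77.7 in WT (−3.56, SE 0.61), and Wt1 gave 7.07, 12.7 and 8.41 in Tbpl2-/- and 72.3, 67.4 and 116 in WT (−3.15, SE 0.47). The markers moved by unlike amounts: Esr2 was lower by 0.28 on the log2 scale, and Kitl (0.11) did not pass. In pools of this kind fewer granulosa cells, less RNA per granulosa cell and a change of the same RNAs within the oocytes cannot be told apart. The part of granulosa cells in the results for genes that they also express was not tested.

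Markers of the remaining cell types had lower sums than those of granulosa cells. The 15 theca and stroma markers summed to 201 to 218 in Tbpl2-/- and 205 to 275 in WT, with Lum at 0 in all 6 libraries. Of these, Dcn gave 59.6, 61.5 and 101 in Tbpl2-/- and 1.00, 10.2 and 0 in WT (4.29, SE 0.62). Postn, whose promoter is printed above, gave 0, 2.12 and 0 in Tbpl2-/- and 6.03, 3.06 and 7.15 in WT, and its call was lost without Tbpl2-/- replicate 1, Tbpl2-/- replicate 3 or WT replicate 3 (adjusted p = 0.0786, 0.0788 and 0.0638 by edgeR). The 9 endothelial markers summed to 809.7 to 921 in Tbpl2-/- and 1086 to 1936 in WT. In that list Pecam1 gave 86.9, 98.6 and 78.8 in Tbpl2-/- and 1157, 591 and 786 in WT (−3.24, SE 0.25), whereas Vwf was higher (1.09, adjusted p = 0.0498 by edgeR), a call lost in 8 of 12 other settings, among them those without Tbpl2-/- replicate 2 or 3 or WT replicate 2 or 3 (adjusted p = 0.0753 to 0.215). Tek gave 712, 582 and 620 in Tbpl2-/- and 673, 426 and 405 in WT and did not pass, but was higher by library size alone (0.65) and without WT replicate 1 (0.64). Cdh5 and Emcn of the same list were at 0 to 2.04 in all libraries. Flt1, at 28.6 to 90.96, and Kdr, at 12.62 to 23.23, had counts in all libraries and did not pass. The part of these cells in the result was not tested. The 13 blood and immune markers summed to 103 to 153 in Tbpl2-/- and 134 to 194 in WT, mostly Cd68. The 10 surface epithelium markers summed to 116 to 157 in Tbpl2-/- and 452 to 525 in WT, and most of the difference was that of Krt8, while Krt19 and Upk1b stayed at 0 to 2.10 in all libraries. Upk3b, at 31.66 to 48.22, and Aldh1a1, at 63.08 to 151.2, had counts in all libraries and did not pass.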

How the data were processed

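By the submitters' processing notes and the study's methods, the authors called bases with bcl2fastq 2.17.1.14, trimmed reads with cutadapt, removed spike reads with bowtie and aligned the rest to mm10 (GRCm38) with STAR 2.7.0f. HTSeq 0.9.1 in union mode, which drops reads that touch more than 1 gene, gave the deposited counts per gene. The strand setting is not given in the sources used here, and the reads carry no molecular identifiers. The authors' deposited normalised values (a signal) are those counts divided by the library's median-of-ratios factor from DESeq2 1.22.2 in R 3.5.3. The deposited table also holds the authors' own comparisons (log2 fold changes, standard errors, a test score, p-values), group means and values per kb of length, which were not used.

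Of 55450 genes, 17715 passed edgeR's filter on low counts, which was applied to the 4 groups of all 12 libraries. Counts were fitted with edgeR 4.0.16 (quasi-likelihood, robust, TMM factors, two-sided F test) in R 4.3.3, with 4 group means over 12 libraries and the contrast P7 KO minus P7 WT. P-values were adjusted by Benjamini and Hochberg over all tested genes. SE was taken from F as the size of the log2 fold change over its square root. The alternatives were DESeq2 1.42.0 and its size factors, library size alone, no filter, the 6 P7 libraries only, a replicate block, any fold, a test against a 2-fold change, and leaving out each library.

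The gene lists, and the genes named, were chosen with earlier results of these data known. Named genes are Tbpl2 and those the study names, the 15 largest falls and rises among called genes with a mean over 100 and no overlap, up to 5 list members each way and 3 that did not pass, the 10 most counted genes per genotype, genes past the stricter count limits in 1 genotype alone, and the 3 longest runs. Predicted genes, pseudogenes, Rik and clone names were left out of the largest changes. The Fbxw, Khdc1 and hair keratin runs, and the keratin promoters, were picked after their values were seen. For each named gene the share of 50-base stretches found in another gene was measured, and shares over 10% are given. Promoters are 300 bases of RefSeq on GRCm38.p6, the start nearest the annotated gene start. Listed symbols were matched to the table, 5 without success. Some results are not reported here. Figures were drawn with Python 3.11.15 and matplotlib 3.10.9.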

Additional observations from a re-analysis of the deposited data

How the results depend on the processing

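Of 17715 tested genes, 3027 were called lower and 2754 higher in Tbpl2-/-. Without the limit on fold the numbers were 5111 and 5403, and in a test against a 2-fold change they were 1747 and 1471. They were 2215 and 4068 by library size alone, 3122 and 2665 with DESeq2's size factors, 3300 and 2711 by DESeq2's own test, 3342 and 2984 with no filter, and 2850 and 2484 from the 6 P7 libraries. Leaving out each library gave 2912 to 3109 lower and 2607 to 2900 higher. Tbpl2 stayed between −5.15 and −4.71 on the log2 scale in all these settings.

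Of the other 407 named genes with a test, 332 kept their direction and side of the threshold in every setting, 43 passed in at least 1 other setting and 31 lost the call in at least 1. The apoptosis gene Bcl2l1 changed sign, with 0.27 by library size alone (adjusted p = 0.0452 by edgeR) against −0.01, which did not pass. Of 66 list counts, library size alone moved 16 by more than 1.5 times and each other setting moved 1 to 5.

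With the replicate number as a block, 2926 genes were called lower and 2741 higher. The samples share only a number: deviations of same-numbered libraries correlated at −0.102, 0.0293 and −0.0542 across genes, and those of other numbers at −0.0951 to 0.133. Of 55450 genes, 34223 had a count in the 6 P7 libraries and 17715 passed the filter. The cause of these differences between settings was not tested.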
